A study of Homo sapiens with 24 samples.

Results

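Cholesterol synthesis and its control by SREBP2 were followed through 28 genes in HEK293T cells, a human embryonic kidney line, by RNA sequencing. The genes were taken by name from the count tables and all 28 were found among 58735 annotated genes. They comprise 20 enzymes or enzyme partners of the pathway, 4 genes that control SREBP2, the sterol carrier gene STARD4, and ABCA1, ABCG1 and MYLIP, which are switched on by the sterol receptor LXR. All 28 passed the filter on low counts that left 19952 genes to be tested.

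The study set MIR210HG-KO and MIR210-KO cells beside unedited WT cells of the same line. MIR210HG-KO cells are labelled as a knockout of the long non-coding RNA gene that hosts miR-210, and MIR210-KO cells as a knockout of the microRNA gene itself. Cells of each genotype were held for 24 h at 1% oxygen (hypoxia) or at 21% oxygen (normoxia), in high-glucose DMEM with 10% fetal bovine serum. Each of the 6 groups held 4 libraries, 24 in all. Whether a knockout is a single clone or a pool, and whether the 4 libraries of a group came from separate cultures, is not given in the sources used here, so p-values measure the spread between these libraries, which may be technical. In bulk RNA, a lower level per cell and fewer cells that express a gene cannot be told apart.

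Cells build cholesterol from acetyl-CoA through mevalonate, isoprenoid diphosphates, squalene and lanosterol, and several of the late steps consume molecular oxygen. When sterols in the endoplasmic reticulum fall, SCAP escorts the transcription factor SREBP2 to the Golgi, where it is cut and released to switch on the genes of the pathway, and INSIG proteins hold the complex back when sterols are plentiful. Oxysterols act in the opposite direction through LXR, which raises genes for sterol export. INSIG2 is a known hypoxia-induced gene in other cells.

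Sequencing depth ran from 25556776 to 37858947 counts per library. MIR210HG had 0 counts in all 8 MIR210HG-KO libraries. An expected count of about 3 is the 95% upper bound from a single library with 0 counts. In hypoxia MIR210HG averaged 20.7 ± 1.46 CPM, counts scaled to library size, in MIR210-KO cells and 19.1 ± 1.72 CPM in WT cells. In normoxia it averaged 3.48 ± 1.07 CPM in MIR210-KO cells and 5.70 ± 0.647 CPM in WT cells (SD, n = 4 each). The MIR210 precursor, which messenger RNA libraries catch poorly, summed to 0, 33 and 30 counts in MIR210HG-KO, MIR210-KO and WT cells in hypoxia and to 0, 1 and 3 counts in normoxia, so the MIR210-KO label could not be checked from them, and the extent of that edit is not given in the sources used here. All 8 markers of HEK293T cells were detected, and their summed level moved with genotype: 431 to 446 CPM in MIR210HG-KO, 1126 to 1200 CPM in MIR210-KO and 862 to 1095 CPM in WT cells in hypoxia, and 341 to 356, 876 to 973 and 523 to 550 CPM in the same order in normoxia. Its part in the results was not tested. Markers of blood and endothelium stayed at or below 0.210 CPM, those of fibroblasts at or below 1.52 CPM and those of hepatocytes at or below 3.67 CPM. Mitochondrial transcripts took 1.93% to 2.25% of counts in MIR210HG-KO, 2.40% to 2.96% in MIR210-KO and 2.38% to 2.88% in WT cells in hypoxia, and 3.18% to 3.33%, 3.71% to 3.95% and 3.54% to 3.74% in normoxia, and their part was not tested either.

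Some libraries stood apart from the rest of their group, and the 4 hypoxia WT libraries split into 2 pairs. Long non-coding RNA took 1.62% and 1.55% of counts in hypoxia WT libraries 1 and 3, against 2.49% and 2.25% in libraries 2 and 4, and 1.88% in hypoxia MIR210-KO library 1, against 2.11% to 2.31% in MIR210-KO libraries 2 to 4. In normoxia MIR210HG-KO library 3, the SREBP2 escort gene SCAP was at 179 CPM, against 244 to 280 CPM in the other 3 libraries, and STARD4 at 38.3 CPM, against 25.9 to 32.2 CPM. Counts of called genes are therefore also given without 4 libraries, hypoxia WT 1 and 3, hypoxia MIR210-KO 1 and normoxia MIR210HG-KO 3. They are called the libraries that stood apart below. This left 2 hypoxia WT libraries, and which hypoxia WT pair was the one apart cannot be told.

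Sequences from RefSeq (GRCh38.p14) were searched for letter patterns of known control elements. A promoter window, from 250 bases before to 50 bases after a start site, was matched for 24 of the 28 genes. The sterol element TCACNCCA, a letter pattern of the sites that SREBP2 binds, was searched on both strands and lay in 3 of these 24 genes (12.5%), against 4.61% of 12125 tested genes with a promoter. SREBF2, MVK and MSMO1 held it, and capitals mark the match in the windows that follow, which are printed because they are the only matches to this pattern among the members.
SREBF2, chr22:41832961-41832990, plus strand: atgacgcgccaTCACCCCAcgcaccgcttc
MVK, chr12:109573588-109573617, plus strand: gttcgcagttcTCACCCCAgggcgggacac
MSMO1, chr4:165327502-165327531, plus strand: tctcactatccTCACTCCAtccgcggagcc

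The CCAAT box, the site of the factor NF-Y that works beside SREBP2 at many sterol genes, was searched as CCAAT on both strands. It lay in 19 of the 24 genes (79.2%), against 42.6% of the tested genes. The windows of HMGCS1 and LSS, whose levels differed most between the knockouts, hold it on the opposite strand, where it reads ATTGG in capitals.
HMGCS1, chr5:43313495-43313524, minus strand: ctaccggccgcgATTGGctgtgggagccac
LSS, chr21:46228907-46228936, minus strand: cgcggcgctctgATTGGttgcgtgggcgtc

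The core ACGTG of the element bound by hypoxia-inducible factors, on both strands, lay in 8 of the 24 genes (33.3%), against 31.3% of the tested genes. It is shown for INSIG2, the member with the strongest response to oxygen, first on the opposite strand, where it reads CACGT, and then on the gene's own strand. The core can overlap itself on the other strand, as in CACGTG. A match is a run of letters and not a measured binding site.
INSIG2, chr2:118088364-118088393, plus strand: ggctcgcaggtcCACGTcttattgacagca
INSIG2, chr2:118088563-118088592, plus strand: gaagcgcgggtgACGTGgtgctgaggaaag

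The microRNA is shown with its seed, bases 2 to 8, in capitals, since the seed sets which messenger RNAs it can pair with. Matches of 7 or 8 bases to the seed in a 3' UTR of GENCODE release 29 were found in 2 of 28 members (7.14%), against 522 of 14460 tested genes (3.61%). They lay in HMGCS1, an 8-base match at position 508 of a 1736-base 3' UTR on chromosome 5, and in INSIG1, a 7-base match at position 1685 of a 1965-base 3' UTR on chromosome 7.
hsa-miR-210-3p, chr11:568112-568133, minus strand: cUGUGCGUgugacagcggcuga
HMGCS1 site: aaaatgtgatACGCACAAaccctttg
INSIG1 site: agacttgatcACGCACAcacaataag

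In WT cells in normoxia, levels scaled by gene length (TPM) spanned from 228 ± 8.48 TPM for INSIG1 to 3.84 ± 0.226 TPM for ABCA1 (SD, n = 4 each). INSIG1, DHCR7 (197 ± 4.42 TPM), SQLE (196 ± 5.02 TPM) and SREBF2 (165 ± 1.86 TPM) led the order, and DHCR7 and SQLE did not differ beyond their spread. TM7SF2, HSD17B7 and CYP51A1 were the lowest enzymes, at 15.9 ± 0.906, 15.9 ± 0.919 and 15.7 ± 1.12 TPM, and did not differ beyond their spread. CYP51A1 shares 83.2% of its exon bases with other annotated genes, so its place in this order is uncertain. ABCG1 (4.81 ± 0.436 TPM) and ABCA1 closed the order. The members took 0.363% ± 0.00701 of all counts in MIR210HG-KO, 0.211% ± 0.00624 in MIR210-KO and 0.299% ± 0.00532 in WT cells in hypoxia, and 0.265% ± 0.00622, 0.171% ± 0.000906 and 0.253% ± 0.00192 in normoxia.

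The enzymes as a group followed the same order of genotypes at both oxygen levels. Their CPM summed to 2470 ± 48.6 in MIR210HG-KO, 1258 ± 46.3 in MIR210-KO and 1905 ± 116 in WT cells in hypoxia, and to 1973 ± 39.0, 1166 ± 28 and 1782 ± 20.9 in normoxia. No library of one genotype entered the range of another: in normoxia the ranges were 1934 to 2027 CPM in MIR210HG-KO, 1143 to 1202 CPM in MIR210-KO and 1752 to 1799 CPM in WT cells, and in hypoxia 2423 to 2520, 1218 to 1318 and 1781 to 2023 CPM. Over single genes in normoxia, 18 of 28 members (64.3%) had their group means in the order MIR210HG-KO over WT over MIR210-KO, against 20% of all tested genes, and in 10 members (35.7%) no libraries overlapped in that order, against 2.96% of all genes. In hypoxia the order held in 19 of 28 members (67.9%, against 15.1%) and without overlap in 10 (35.7%, against 1.89%). MIR210-KO cells had the lowest mean for 25 members in normoxia (89.3%, against 37.0%) and for 23 in hypoxia (82.1%, against 32.7%).

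**Figure D1:**
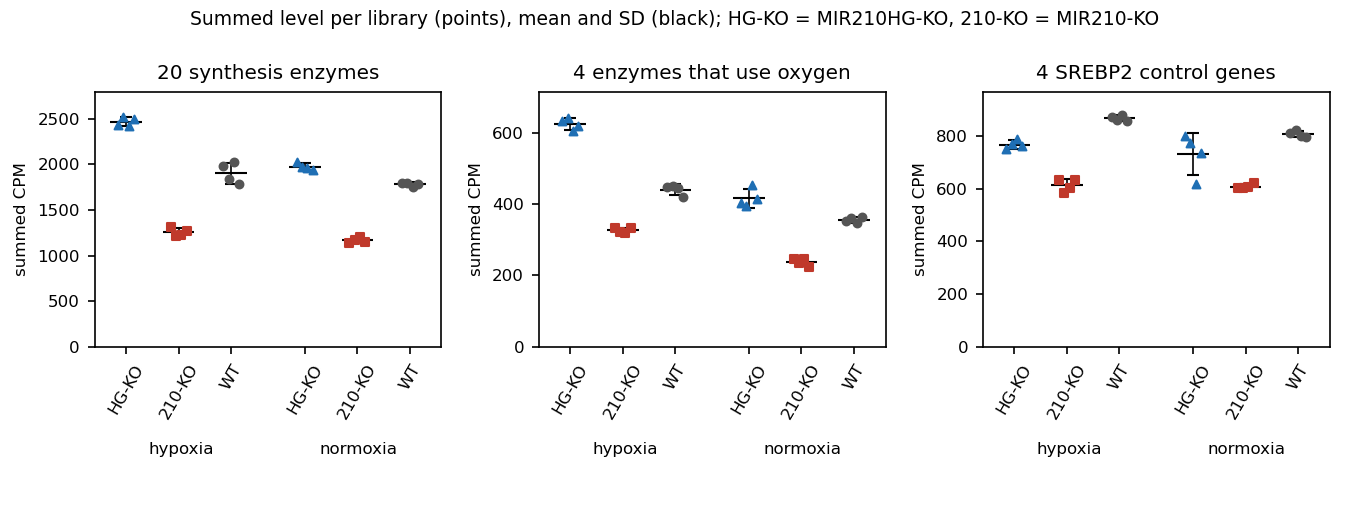
Summed CPM (vertical axis) of the 20 enzymes, of the 4 enzymes among them that use molecular oxygen and of the 4 SREBP2 control genes in each library (points), with group means and SD in black, for MIR210HG-KO (HG-KO), MIR210-KO (210-KO) and WT cells in hypoxia and normoxia. The enzyme sums of MIR210-KO cells lie between 1143 and 1318 CPM, below every WT sum.

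The comparison of cells labelled MIR210-KO with WT cells in normoxia asked how the 2 lines differ at 21% oxygen. The pathway was lower in MIR210-KO cells: 20 of 28 members fell, 1 rose and 7 did not pass the test, where 44.2% of all tested genes passed it in either direction, 21.6% as lower and 22.6% as higher (edgeR quasi-likelihood F test, Benjamini-Hochberg adjusted p under 0.05). The median of the members was -0.38 on the log2 scale, against 0.01 over all tested genes. The 6 genes of the mevalonate steps all fell, as did the prenyl transferases FDPS and GGPS1 and the 3 genes from squalene to lanosterol. The libraries of both genotypes did not overlap for 22 members that were lower and 1 that was higher in MIR210-KO cells, where 47.7% of all genes had no overlap, 23.4% as lower and 24.3% as higher. With the libraries that stood apart removed, 22 members fell and 2 rose. Over all genes, 5049 were then lower and 5329 higher, against 4305 and 4511 with every library. None of those libraries belongs to the 2 groups compared here, so these counts changed only through the fit that all groups share.

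LSS, which closes the sterol ring to form lanosterol, had 56.1, 58.2, 57.9 and 61.6 CPM in MIR210-KO cells, against 160, 151, 154 and 142 CPM in WT cells. Every MIR210-KO library lay below every WT library, and LSS fell by 1.38 ± 0.068 on the log2 scale (SE, adjusted p = 5.69e-17). IDI1, the isomerase that makes the allylic building block of isoprenoids, had 53.3, 56.6, 60.3 and 46.2 CPM in MIR210-KO cells, against 115, 123, 114 and 123 CPM in WT cells. The groups did not overlap, with a log2 change of -1.14 ± 0.079 (adjusted p = 1.52e-13). HMGCS1, which condenses acetyl-CoA with acetoacetyl-CoA at the entry of the pathway, had 65.3, 70.8, 64.3 and 62.4 CPM in MIR210-KO cells, against 135, 143, 137 and 146 CPM in WT cells. Its groups were apart as well, with a log2 change of -1.09 ± 0.057 (adjusted p = 1.71e-16).

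Of the other mevalonate genes in MIR210-KO cells in normoxia, ACAT2, which makes acetoacetyl-CoA, fell by 0.70 ± 0.068 and MVD, the decarboxylase, by 0.65 ± 0.11, and the kinases MVK and PMVK by 0.47 ± 0.082 and 0.26 ± 0.092. SQLE, the epoxidase that takes the first oxygen into squalene, fell by 0.75 ± 0.049 and FDFT1, the squalene synthase, by 0.38 ± 0.054. Farther along, 5 of the 9 genes from lanosterol to cholesterol fell: DHCR7, the final reductase, by 0.98 ± 0.068, MSMO1, the oxidase that removes methyl groups, by 0.53 ± 0.074, TM7SF2, a sterol reductase, by 0.43 ± 0.10, CYP51A1, the lanosterol demethylase, by 0.34 ± 0.10 and NSDHL, a sterol dehydrogenase, by 0.27 ± 0.081 on the log2 scale. HSD17B7, a ketosteroid reductase of the same complex, was the member that rose, by 0.27 ± 0.066. EBP, the sterol isomerase (-0.05), SC5D, the sterol desaturase (-0.10) and ERG28 (-0.13) did not pass.

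Among the control genes in MIR210-KO cells in normoxia, INSIG1, which retains SCAP in the endoplasmic reticulum and is itself an SREBP target, fell by 1.09 ± 0.049 (adjusted p = 5.04e-18), to 105 to 114 CPM in MIR210-KO cells against 224 to 244 CPM in WT cells. SREBF2, the gene of SREBP2, fell by 0.42 ± 0.055 to 263 ± 3.27 CPM, against 351 ± 6.89 CPM in WT cells. SCAP (0.07) and INSIG2 (0.17) did not pass. The exporter gene ABCA1 fell by 0.78 ± 0.14 and MYLIP, whose product marks a lipoprotein receptor for degradation, by 0.38 ± 0.073, so members on the SREBP2 side and on the LXR side were lower together, while ABCG1 (-0.12) and STARD4 (-0.18) did not pass.

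Counts of some members may be too high or too low. Reads in shared exon bases cannot be assigned with certainty, and the strand setting is not stated. CYP51A1 shares 83.2% of its exon bases with other annotated genes, 79.4% on its own strand, ACAT2 shares 52.3% with SOD2, SOD2-OT1 and TCP1 on the opposite strand, and GGPS1 shares 41.0%, 37.3% with TBCE on its own strand. Another 10 members share from 0.469% to 18.6%. HSD17B7 has 2 named pseudogene copies at 3.45 CPM together, FDPS has 8 at 0.200 CPM and CYP51A1 has 3 at 0.266 CPM, which could split reads with them.

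With a covariate for the balance of long and short genes, 5 of the 21 calls in MIR210-KO cells in normoxia did not hold: PMVK (0.01), FDPS (-0.09), GGPS1 (-0.04), TM7SF2 (-0.22) and NSDHL (-0.03). The covariate ran from 0.0459 to 0.09 in MIR210-KO and from -0.0553 to -0.021 in WT libraries. It thus separated the genotypes, and these losses cannot be told from removal of part of the genotype difference. PMVK also lost its call on leaving out any of 4 libraries, with values from -0.25 to -0.20: WT 1, 3 or 4 or MIR210-KO 1. The other 16 calls held in every alternative that was run.

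MIR210HG-KO cells in normoxia moved in the other direction, by less. Of the 28 members 15 rose, 3 fell and 10 did not pass, where 35.2% of all tested genes passed, 15.6% as higher and 19.6% as lower. The median of the members was 0.16, against -0.01 over all genes. This comparison shares its WT libraries with the one before. Libraries did not overlap for 12 members that were higher and 1 that was lower, against 15.4% and 19.7% of all genes (35.2% together). Leaving out the libraries that stood apart gave 19 higher and 4 lower. All-gene calls rose as well, to 3873 higher and 4310 lower, against 3107 and 3912 with every library.

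INSIG1 had 119, 119, 110 and 125 CPM in MIR210HG-KO cells, against 233, 244, 224 and 238 CPM in WT cells. It was lower in every library, by 0.99 ± 0.049 on the log2 scale (adjusted p = 9.78e-17), while most enzymes were higher. The other tested genes within 5 Mb of INSIG1 had a median of -0.73 in this comparison, and the part of that region was not tested. ERG28, which holds the complex that removes methyl groups from sterols together, a role known from yeast, had 68.5, 64.8, 72.2 and 65.3 CPM in MIR210HG-KO cells, against 44.6, 45.0, 45.0 and 42.3 CPM in WT cells. The groups were apart and ERG28 rose by 0.62 ± 0.062 (adjusted p = 1.60e-09). ABCA1 had 18.2, 17.9, 16.4 and 17.7 CPM in MIR210HG-KO cells, against 13.0, 12.2, 12.8 and 11.2 CPM in WT cells. It rose by 0.52 ± 0.13 (adjusted p = 0.0019) with no overlap.

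HMGCS1 rose by 0.41 ± 0.056 in MIR210HG-KO cells in normoxia, MYLIP by 0.41 ± 0.071, SC5D by 0.40 ± 0.064, MSMO1 by 0.33 ± 0.072 and HSD17B7 by 0.32 ± 0.065. These 5 calls, with those of ERG28, INSIG1 and ABCA1, held in every alternative run. The other 10 were smaller and each was lost on leaving out at least 1 library. MVK (0.24) was not called without WT 2 or MIR210HG-KO 1, with values of 0.21 to 0.23, SQLE (0.16) without MIR210HG-KO 3 (0.13), LSS (0.21) without WT 4, MIR210HG-KO 1 or MIR210HG-KO 2 (0.18 to 0.19), and SCAP (0.25) without MIR210HG-KO 1 or 2 (0.20). MVD (0.28) was lost without any of 6 libraries, with values from 0.23 to 0.29, TM7SF2 (0.28) without any of 5 (0.24 to 0.28), CYP51A1 (0.25) without any of 5 (0.21 to 0.27) and FDPS (0.14) without any of 4 (0.13 to 0.15). The falls of IDI1 (-0.20) and DHCR7 (-0.18) were lost without any of 19 and any of 9 libraries, with values from -0.20 to -0.14 and from -0.19 to -0.10. Some of these libraries lie outside the 2 groups compared and act only through the fit that all groups share. With upper quartile factors MVD (0.26), FDPS (0.12) and CYP51A1 (0.23) were not called. IDI1 and DHCR7 were not called by DESeq2 (-0.17 and -0.16), and DHCR7 was at -0.10, not called, without the libraries that stood apart. The members called numbered 12 without WT 2, the fewest.

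**Figure D2:**
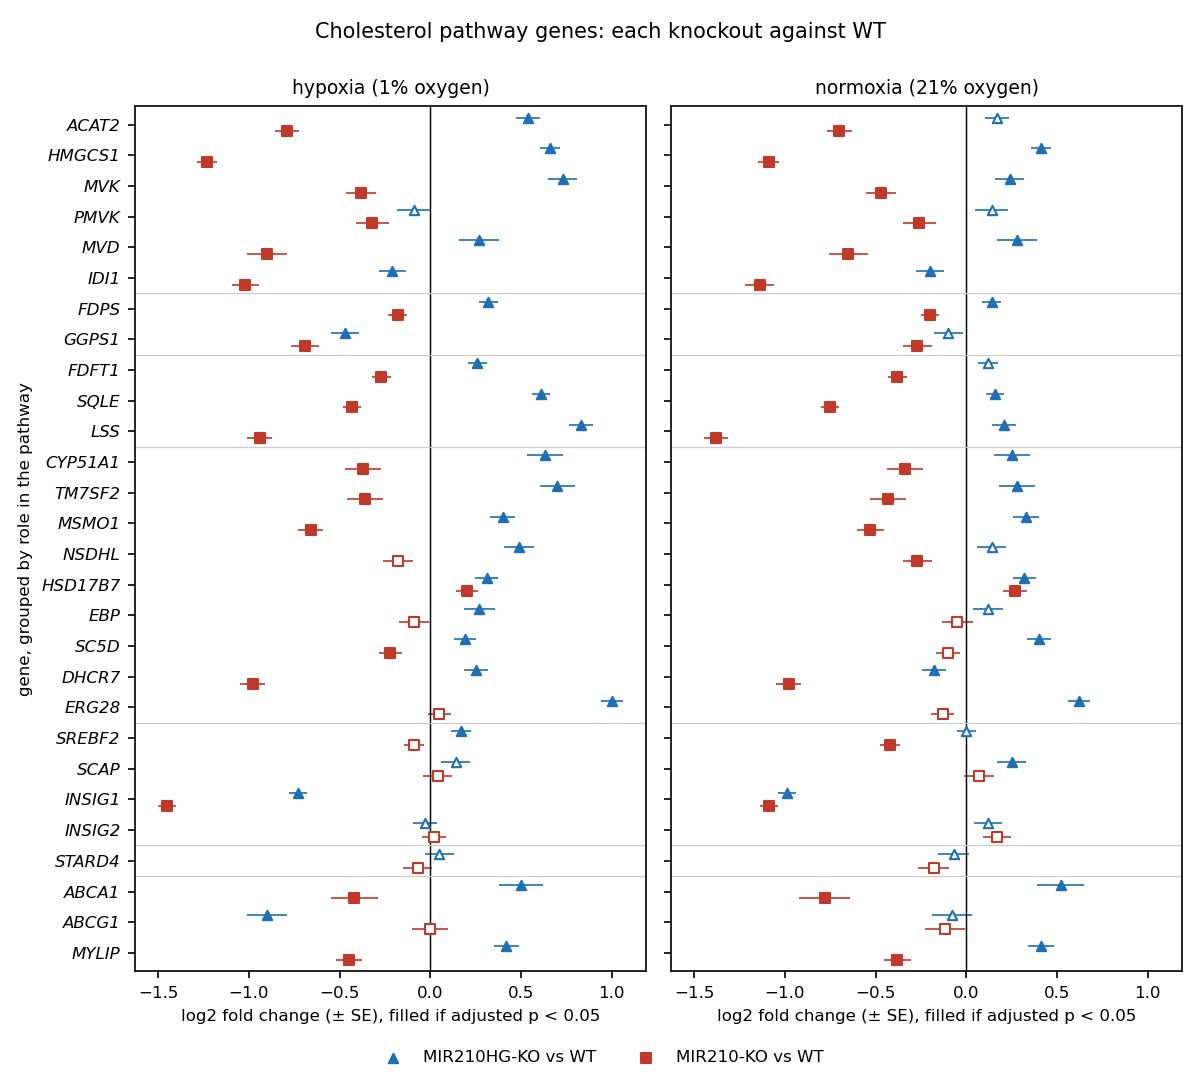
Log2 fold change (horizontal axis, ± SE) of the 28 genes, grouped by role, in MIR210HG-KO against WT cells (blue triangles) and MIR210-KO against WT cells (red squares), in hypoxia on the left and in normoxia on the right, filled where the adjusted p is under 0.05. Red squares lie mostly left of 0 and blue triangles mostly right of 0, with INSIG1 left of 0 in both knockouts.

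The direct comparison of MIR210HG-KO with MIR210-KO cells in normoxia, which uses no WT library, gave 20 members higher, 0 lower and 8 not called, where 49.2% of all tested genes were called, 23.4% as higher and 25.8% as lower. By DESeq2 23 were higher and 0 lower, where it called 5021 of all genes higher and 4976 lower. At an unadjusted p under 0.05 in edgeR the number of members lower was 0 as well. Libraries did not overlap for 21 members, all higher, where 44.4% of all genes had no overlap, 20.6% as higher and 23.8% as lower. The median was 0.55, against 0.00 over all genes. LSS was higher by 1.58 ± 0.069 (adjusted p = 8.35e-19), at 143 to 191 CPM in MIR210HG-KO against 56.1 to 61.6 CPM in MIR210-KO cells. HMGCS1 was higher by 1.5 ± 0.057 (adjusted p = 3.38e-20), at 177 to 202 against 62.4 to 70.8 CPM. ABCA1 was higher by 1.29 ± 0.14 (adjusted p = 1.35e-09), at 16.4 to 18.2 against 6.18 to 7.88 CPM. Each had no overlap between the libraries of both genotypes. IDI1 (0.94 ± 0.079), MVD (0.93 ± 0.11), SQLE (0.91 ± 0.049), ACAT2 (0.86 ± 0.068) and MSMO1 (0.86 ± 0.074) followed. INSIG1 (0.10), INSIG2 (-0.05), SCAP (0.18), STARD4 (0.11), ABCG1 (0.04), GGPS1 (0.18), HSD17B7 (0.06) and EBP (0.16) did not pass. With the covariate for long and short genes, PMVK (0.12, against 0.40) and NSDHL (0.16, against 0.41) were not called. The covariate separated these genotypes too, at -0.0659 to -0.02 in MIR210HG-KO against 0.0459 to 0.09 in MIR210-KO libraries.

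In hypoxia, MIR210-KO cells again had the lower pathway: 19 of 28 members fell, 1 rose and 8 did not pass, where 55.9% of all tested genes were called, 27.7% as lower and 28.2% as higher. The median was -0.36, against 0.02 over all genes. All 6 mevalonate genes and all 4 enzymes that use molecular oxygen fell. Libraries did not overlap for 14 members, each lower, where 45.1% of all genes had no overlap, 22.3% as lower and 22.7% as higher. Removing the libraries that stood apart left 19 lower and 2 higher. Over all genes, 5306 were then lower and 5532 higher, against 5523 and 5627 with every library.

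INSIG1 had 142, 137, 135 and 145 CPM in MIR210-KO cells in hypoxia, against 393, 376, 390 and 364 CPM in WT cells. It fell by 1.45 ± 0.049 (adjusted p = 1.85e-21), the groups far apart. HMGCS1 had 86.8, 91.4, 92.5 and 95 CPM in MIR210-KO cells, against 206, 229, 214 and 207 CPM in WT cells. Every MIR210-KO library was lower, by 1.23 ± 0.056 in the fit (adjusted p = 2.79e-18). IDI1 had 147, 135, 128 and 136 CPM in MIR210-KO cells, against 313, 267, 289 and 240 CPM in WT cells. The WT libraries spread widely, yet none reached the MIR210-KO range, and IDI1 fell by 1.02 ± 0.076 (adjusted p = 3.80e-13).

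DHCR7 (-0.98 ± 0.069), LSS (-0.94 ± 0.068), MVD (-0.90 ± 0.11), ACAT2 (-0.79 ± 0.066), GGPS1 (-0.69 ± 0.078), which makes the lipid anchor of many small GTPases, and MSMO1 (-0.66 ± 0.07) fell by more than 0.5 in MIR210-KO cells in hypoxia. SQLE (-0.43 ± 0.049), CYP51A1 (-0.37 ± 0.10), FDFT1 (-0.27 ± 0.054) and SC5D (-0.22 ± 0.063) fell by less with no overlap, and MVK, PMVK, FDPS and TM7SF2 (-0.38 to -0.18) fell with overlapping libraries. HSD17B7 rose by 0.20 ± 0.061, with overlap. SREBF2 (-0.09), SCAP (0.04), INSIG2 (0.02), STARD4 (-0.07), ABCG1 (0.00), EBP (-0.09), NSDHL (-0.18) and ERG28 (0.05) did not pass. ABCA1 (-0.42 ± 0.13, with overlap) was not called without WT library 2 (-0.25), and PMVK (-0.32) not without the libraries that stood apart (-0.17); the other 18 calls held in every alternative run.

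MIR210HG-KO cells in hypoxia had the highest summed level of the enzymes in the series. Against WT cells, 20 members rose, 4 fell and 4 did not pass, where 54.6% of all tested genes were called, 24.4% as higher and 30.2% as lower. The median was 0.29, against -0.03 over all genes. All 9 genes from lanosterol to cholesterol and all 3 from squalene to lanosterol rose. The comparison shares its WT libraries with that of MIR210-KO cells in hypoxia. Libraries did not overlap for 18 members that were higher and 3 that were lower, against 20.2% and 24.9% of all genes (45% together). With the libraries that stood apart left out, 20 rose and 3 fell. Over all genes, 4924 were then higher and 5777 lower, against 4861 and 6025 with every library.

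ERG28 had 81.6, 74.7, 74.7 and 71.3 CPM in MIR210HG-KO cells in hypoxia, against 39.0, 35.7, 42.4 and 34.4 CPM in WT cells. It rose by 1.00 ± 0.061 (adjusted p = 8.11e-15) with a wide gap between the groups. ABCG1, an exporter that passes sterols to lipoprotein particles, had 4.73, 4.55, 6.42 and 6.26 CPM in MIR210HG-KO cells, against 11.3, 9.14, 11.3 and 9.40 CPM in WT cells. It fell by 0.90 ± 0.11 (adjusted p = 2.50e-08) with no overlap, whereas the exporter ABCA1 rose by 0.50 ± 0.12, with overlap, and to 0.20, not called, without the libraries that stood apart. LSS had 162, 174, 178 and 172 CPM in MIR210HG-KO cells, against 96.6, 95.7, 98.3 and 97.2 CPM in WT cells. All MIR210HG-KO libraries were higher, and LSS rose by 0.83 ± 0.066 (adjusted p = 4.09e-12).

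In the same comparison MVK (0.73 ± 0.081), TM7SF2 (0.70 ± 0.095), HMGCS1 (0.66 ± 0.055), CYP51A1 (0.63 ± 0.099), SQLE (0.61 ± 0.048) and ACAT2 (0.54 ± 0.065) rose by more than 0.5 with no overlap. INSIG1 fell by 0.73 ± 0.048, to 230 ± 6.10 CPM against 381 ± 13.6 CPM in WT cells, and GGPS1 by 0.47 ± 0.077. The other tested genes within 5 Mb of INSIG1 had a median of -0.75 in this comparison, and the part of that region was not tested. SREBF2 rose by 0.17 ± 0.054, while SCAP (0.14), INSIG2 (-0.03), STARD4 (0.05) and PMVK (-0.09) did not pass. MVD (0.27) was lost without any of 6 libraries (0.18 to 0.28), IDI1 (-0.21) without WT 1, WT 3 or MIR210HG-KO 3 (-0.18 to -0.15) and EBP (0.27) without WT 2 (0.18). IDI1 was at -0.08 without the libraries that stood apart and at -0.17 in a fit of only the groups compared, and MVD at 0.21 with the covariate for long and short genes, none of them called.

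Set directly against MIR210-KO cells in hypoxia, MIR210HG-KO cells had 23 members higher, 1 lower and 4 not called, where 55.1% of all tested genes were called, 26% as higher and 29% as lower. The median was 0.77, against -0.01 over all genes. Libraries did not overlap for 21 members that were higher and 1 that was lower, against 24% and 26.5% of all genes (50.6% together). HMGCS1 was higher by 1.89 ± 0.057 (adjusted p = 6.56e-23) and LSS by 1.76 ± 0.069 (adjusted p = 4.27e-20), from the library values above and those of LSS in MIR210-KO cells, 54.9, 46.0, 50.5 and 51.2 CPM. ACAT2 had 119, 119, 114 and 118 CPM in MIR210HG-KO cells, against 50, 45.7, 45.0 and 45.5 CPM in MIR210-KO cells. Its groups were far apart and the log2 difference was 1.33 ± 0.067 (adjusted p = 2.82e-17). INSIG1, which did not pass between the knockouts in normoxia, was higher by 0.72 ± 0.048 in MIR210HG-KO cells in hypoxia. ABCG1 was the member that was lower, by 0.90 ± 0.11. PMVK (0.24) was lost without any of 5 libraries (0.20 to 0.24), and GGPS1 (0.21) without MIR210-KO 3 or 4 or MIR210HG-KO 4 (0.18 to 0.21). With the covariate for long and short genes PMVK (0.08), GGPS1 (0.08) and EBP (0.20, against 0.36) were not called, and with upper quartile factors PMVK (0.20) and GGPS1 (0.18) were not. The covariate separated the genotypes here as well, at -0.0445 to -0.012 in MIR210HG-KO against 0.00722 to 0.0974 in MIR210-KO libraries.

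**Figure D3:**
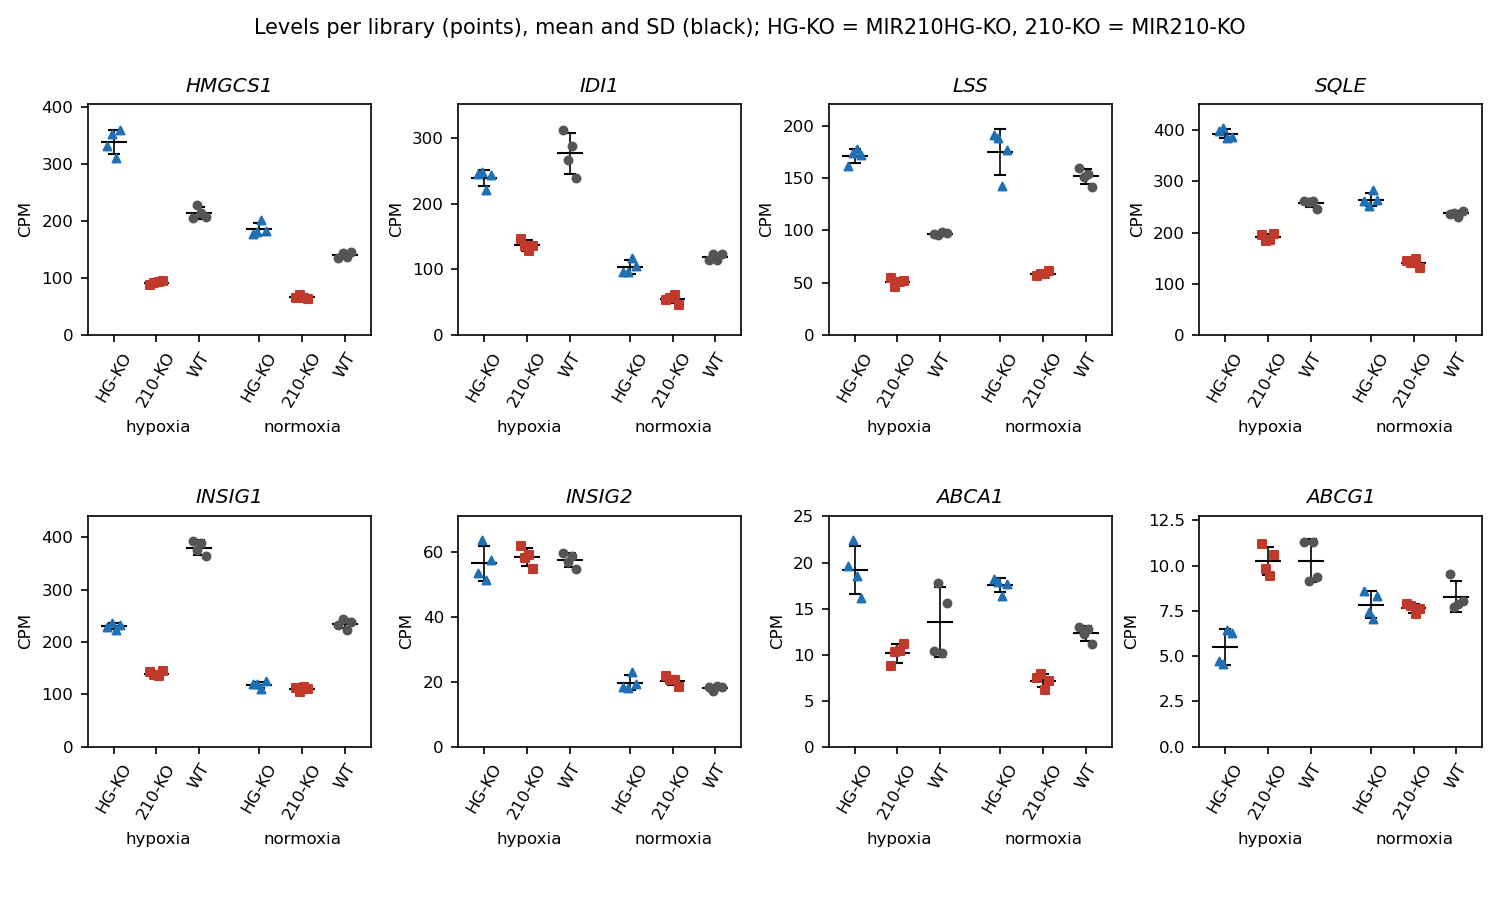
CPM per library (points; vertical axes start at 0) of 8 members, with group means and SD in black, in MIR210HG-KO (HG-KO), MIR210-KO (210-KO) and WT cells in hypoxia and normoxia. HMGCS1, LSS and SQLE follow the order MIR210HG-KO over WT over MIR210-KO in the means at both oxygen levels, INSIG1 is highest in WT, INSIG2 separates by oxygen and ABCG1 is lowest in hypoxic MIR210HG-KO cells.

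The response to oxygen split the pathway in each genotype. Because each oxygen level has its own deposited table, oxygen level and table cannot be told apart. In MIR210HG-KO cells in hypoxia against normoxia, 14 members rose, 6 fell and 8 did not pass, where 54.1% of all tested genes were called, 25.7% as higher and 28.3% as lower (median 0.14, against 0.03 over all genes). In MIR210-KO cells 13 rose and 10 fell, where 58.7% of all genes were called, 29.3% as higher and 29.5% as lower (median 0.04, against 0.04). In WT cells 12 rose and 11 fell, where 60.3% of all genes were called, 29.6% as higher and 30.7% as lower, so the 23 members called had no common direction (median 0.01, against 0.00). Hypoxic and normoxic libraries did not overlap for 12 higher and 7 lower members in MIR210HG-KO cells, against 21.8% and 24.6% of all genes (46.4% together). The same was seen for 13 higher and 10 lower members in MIR210-KO cells, against 26% and 28.1% (54.1% together), and for 11 higher and 9 lower members in WT cells, against 25.5% and 27.6% (53.2% together). With upper quartile factors the median of all genes moved up by 0.14 in both knockouts, and 64.1% (MIR210-KO) and 62.9% (MIR210HG-KO) of called genes were then higher, against 49.8% and 47.6%. Without the libraries that stood apart, 13 rose and 12 fell in MIR210HG-KO, 13 rose and 10 fell in MIR210-KO, and 10 rose and 13 fell in WT cells. Over all genes, 5630 then rose and 6129 fell in MIR210HG-KO cells, against 5135 and 5653 with every library. In MIR210-KO cells 6384 rose and 6351 fell, against 5836 and 5878, and in WT cells 6027 rose and 6309 fell, against 5899 and 6123.

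INSIG2, the second retention factor of SCAP, had the strongest response of the members in every genotype. In MIR210HG-KO cells it had 53.7, 63.7, 51.5 and 57.7 CPM in hypoxia against 18.4, 18.1, 23 and 19.5 CPM in normoxia, a log2 change of 1.52 ± 0.073 (adjusted p = 3.60e-17). In MIR210-KO cells it had 61.9, 58.3, 59.2 and 55.0 CPM in hypoxia against 21.7, 20.7, 20.7 and 18.5 CPM in normoxia (1.52 ± 0.073, adjusted p = 3.20e-17). In WT cells it had 59.9, 57.0, 58.8 and 55.0 CPM in hypoxia against 18.3, 17.2, 18.8 and 18.3 CPM in normoxia (1.67 ± 0.073, adjusted p = 1.59e-18). No hypoxic library came near a normoxic one, and the genotypes overlapped within each oxygen level.

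STARD4, a carrier of sterols between membranes, had 72.2, 74.4, 67.9 and 71.3 CPM in hypoxia against 26.3, 25.9, 38.3 and 32.2 CPM in normoxia in MIR210HG-KO cells (1.22 ± 0.082, adjusted p = 1.34e-13). It had 60.9, 69.6, 67.0 and 65.7 CPM in hypoxia against 28.3, 27.8, 30.6 and 27.0 CPM in normoxia in MIR210-KO cells (1.21 ± 0.083, adjusted p = 1.20e-13), and 67.6, 74.7, 62.8 and 71.4 CPM against 31.1, 32.6, 31.8 and 33.5 CPM in WT cells (1.10 ± 0.081, adjusted p = 4.04e-13). Here too hypoxic libraries were all higher. The genotypes overlapped in hypoxia, while in normoxia MIR210-KO libraries lay below WT libraries and MIR210HG-KO libraries overlapped both. IDI1 rose by 1.21 ± 0.077 in MIR210HG-KO, 1.33 ± 0.078 in MIR210-KO and 1.22 ± 0.076 in WT cells (adjusted p = 3.57e-14, 4.26e-15 and 7.97e-15), where MIR210HG-KO libraries had 246, 248, 221 and 244 CPM in hypoxia against 96.5, 95.9, 118 and 105 CPM in normoxia. IDI1 was thus lowest in MIR210-KO cells at both oxygen levels and higher in hypoxia in all 3 genotypes.

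Other members that rose in hypoxia in all 3 genotypes were MSMO1 (0.99 in MIR210HG-KO, 0.80 in MIR210-KO and 0.93 in WT cells), HSD17B7 (0.71, 0.66 and 0.72), HMGCS1 (0.87, 0.48 and 0.61), INSIG1 (0.96, 0.34 and 0.70), SC5D (0.36, 0.45 and 0.56), GGPS1 (0.41, 0.38 and 0.79), FDPS (0.33, 0.17 and 0.15) and SQLE (0.57, 0.43 and 0.11). Of these, SQLE in WT cells was lost without any of 11 libraries (0.11 to 0.12), FDPS in WT cells without hypoxia library 3 (0.11), and FDPS in MIR210-KO cells without hypoxia library 1 (0.13). Some of the 11 libraries for SQLE are MIR210HG-KO libraries, which act only through the shared fit. In WT cells FDPS (0.07) and SQLE (0.09) were not called without the libraries that stood apart, nor with no low-count filter (0.15 and 0.12), and SQLE not with the covariate for long and short genes (0.12). Members that fell in all 3 genotypes were SCAP (-0.76, -0.68 and -0.65), EBP (-0.53, -0.73 and -0.69), NSDHL (-0.45, -0.70 and -0.80), MVK (-0.26, -0.66 and -0.75, the first not called with upper quartile factors, -0.13) and PMVK (-0.55, -0.38 and -0.32). LSS (-0.03, -0.21 and -0.64), CYP51A1 (-0.20, -0.61 and -0.58) and DHCR7 (-0.08, -0.51 and -0.51) were not called in MIR210HG-KO cells and fell in MIR210-KO and WT cells. In normoxia, MIR210HG-KO library 3, which stood apart, held CYP51A1 at 14.7 CPM, against 19.9 to 20.8 CPM in the other libraries. Without the libraries that stood apart, 25 members were called in MIR210HG-KO cells, against 20. A missing call there may thus depend on that library. Without MIR210-KO library 2 of hypoxia, LSS in MIR210-KO cells was not called (-0.16), nor with upper quartile factors (-0.06).

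Of the 4 enzymes that use molecular oxygen, SQLE, MSMO1 and SC5D rose in all genotypes and CYP51A1 fell in WT and MIR210-KO cells. Their summed level was 624 ± 16.7 CPM in hypoxia against 416 ± 26.2 CPM in normoxia in MIR210HG-KO cells, 327 ± 7.75 against 238 ± 10.4 CPM in MIR210-KO cells and 441 ± 14.6 against 356 ± 8.03 CPM in WT cells, with no overlap between oxygen levels. SREBF2 did not pass in MIR210HG-KO (-0.05) or MIR210-KO cells (0.10) and fell in WT cells (-0.23 ± 0.054). ABCG1 fell by 0.51 ± 0.11 in hypoxia in MIR210HG-KO cells, rose by 0.42 ± 0.11 in MIR210-KO cells and rose by 0.31 ± 0.11 in WT cells, where the call was lost without WT library 1 or 3 (0.26) and without all the libraries that stood apart (0.15). ABCA1 rose in MIR210-KO cells (0.50 ± 0.14) and did not pass in MIR210HG-KO (0.13) or WT cells (0.14), and MYLIP did not pass in any genotype.

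**Figure D4:**
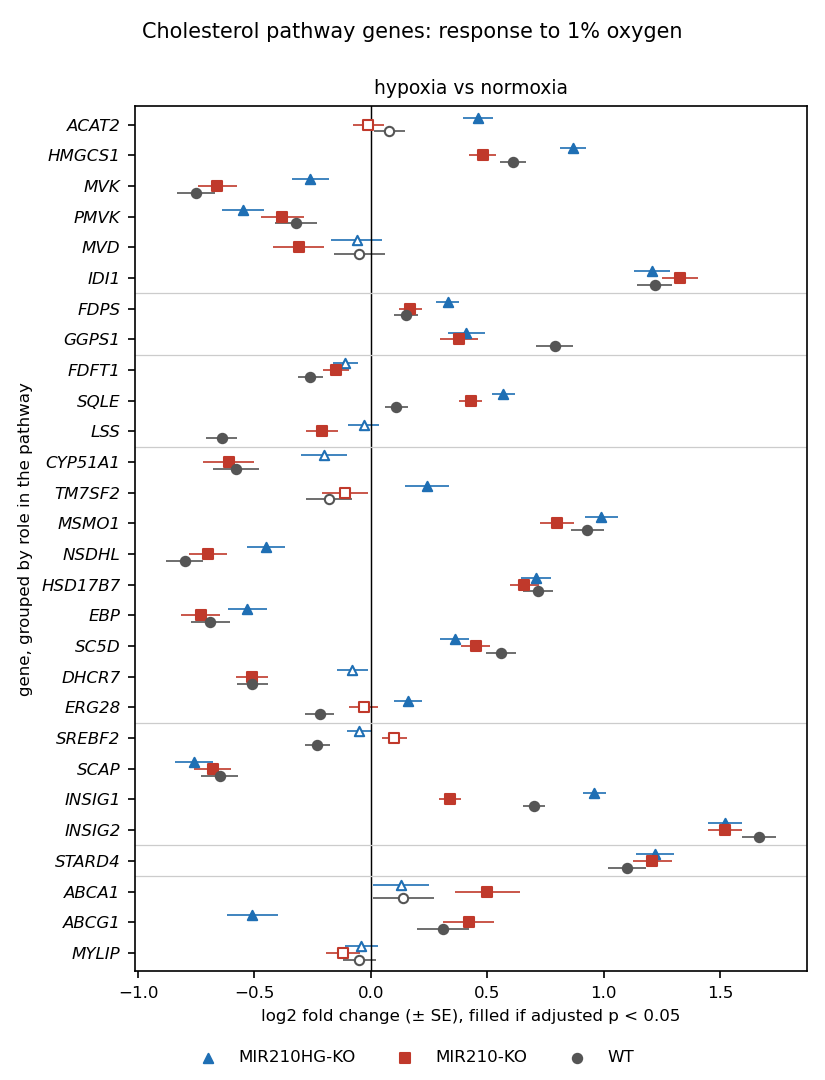
Log2 fold change of hypoxia against normoxia (horizontal axis, ± SE) of the 28 genes, grouped by role, in MIR210HG-KO (blue triangles), MIR210-KO (red squares) and WT cells (grey circles), filled where the adjusted p is under 0.05. INSIG2, IDI1 and STARD4 lie at 1.10 or above in each genotype, while SCAP, EBP, NSDHL, MVK and PMVK lie left of 0.

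An interaction test asked whether the oxygen response of a knockout differed from that of WT cells. For MIR210-KO cells 5 of 28 members passed, 3 with a higher response and 2 with a lower one, where 26.5% of all tested genes passed, 12.5% as higher and 14% as lower. These were LSS (0.44 ± 0.095, adjusted p = 0.000788), SREBF2 (0.33 ± 0.077, adjusted p = 0.00175), SQLE (0.32 ± 0.069, adjusted p = 0.000703), INSIG1 (-0.36 ± 0.068, adjusted p = 0.000165) and GGPS1 (-0.41 ± 0.11, adjusted p = 0.00577). With the libraries that stood apart excluded from the fit, 6 were higher and 2 lower. Over all genes, 2893 were then higher and 3039 lower, against 2495 and 2792 with every library. With upper quartile factors 56.8% of all calls were higher, against 47.2%.

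For MIR210HG-KO cells 13 of 28 members passed, 11 with a higher response and 2 with a lower one, where 22.5% of all genes passed, 10.2% as higher and 12.2% as lower, and the median was 0.15, against 0.01 over all genes. ABCG1 had the most negative difference (-0.82 ± 0.16, adjusted p = 0.00024), and LSS (0.62 ± 0.093, adjusted p = 1.05e-05) and MVK (0.49 ± 0.11, adjusted p = 0.00172) the most positive. MVK had 31.0, 33.4, 32.7 and 31.5 CPM in hypoxia against 41.9, 39.1, 34.3 and 39.0 CPM in normoxia in MIR210HG-KO cells, and 18.5, 17.3, 22.7 and 18.9 CPM against 32.8, 31.5, 33.8 and 32.4 CPM in WT cells, so it was lower in hypoxia in both, by less in MIR210HG-KO cells. SQLE (0.46 ± 0.068), DHCR7 (0.44 ± 0.095), ERG28 (0.38 ± 0.087), ACAT2 (0.37 ± 0.093) and INSIG1 (0.26 ± 0.068) also had higher responses, and these calls held in every alternative run. TM7SF2 (0.42) was lost without any of 6 libraries (0.32 to 0.40), NSDHL (0.35) without any of 7 (0.26 to 0.34), CYP51A1 (0.38) without any of 12 (0.28 to 0.38), HMGCS1 (0.25) without WT 4 or MIR210HG-KO 1 of normoxia or MIR210HG-KO 4 of hypoxia (0.22 to 0.23), and GGPS1 (-0.38) without MIR210HG-KO 3 of normoxia (-0.27). Some of the 12 libraries for CYP51A1 are MIR210-KO libraries, which act only through the shared fit. Without the libraries that stood apart CYP51A1 (0.15) and GGPS1 (-0.16) were not called, and 14 members were higher and 3 lower. Over all genes, 2278 were then higher and 2505 lower, against 2045 and 2441 with every library. CYP51A1 was also not called in a fit of only the groups compared (0.38), with a replicate block (0.39) or without the mitochondrial genome (0.37), nor HMGCS1 with no low-count filter (0.25). With upper quartile factors 55.8% of all calls were higher, against 45.6%.

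The members lie on 17 chromosomes, and some lie where many genes moved together. In MIR210-KO cells in normoxia, the other tested genes within 5 Mb had a median of -0.70 around INSIG1 on chromosome 7 (62 genes), -0.55 around DHCR7 (154 genes), -0.52 around TM7SF2 (249 genes) and -0.50 around SC5D (115 genes). The last 3 members lie on chromosome 11, whose tested genes had a median of -0.50 in MIR210-KO against WT cells in normoxia and -0.48 in hypoxia. TM7SF2 (-0.43) and SC5D (-0.10) did not lie below their neighbours, while DHCR7 (-0.98) did. In MIR210HG-KO cells, the neighbours of INSIG1 had a median of -0.75 in hypoxia and -0.73 in normoxia, beside -0.73 and -0.99 for INSIG1 itself, those of ERG28 on chromosome 14 0.35 and 0.39, beside 1.00 and 0.62, and those of MSMO1 on chromosome 4 (20 genes) -0.75 and -0.57, beside 0.40 and 0.33. Around IDI1 on chromosome 10 (25 genes) the neighbours had a median of -0.45 in hypoxia and -0.50 in normoxia in MIR210HG-KO cells, beside -0.21 and -0.20 for IDI1, so IDI1 was called lower and yet lay above its neighbours. The part of these regions in the members' values was not tested further.

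Over all 28 members, the median difference from the neighbours was 0.35 in hypoxia and 0.22 in normoxia for MIR210HG-KO against WT cells, and -0.26 in hypoxia and -0.35 in normoxia for MIR210-KO against WT cells. The same difference over all tested genes was not computed.

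**Figure D5:**
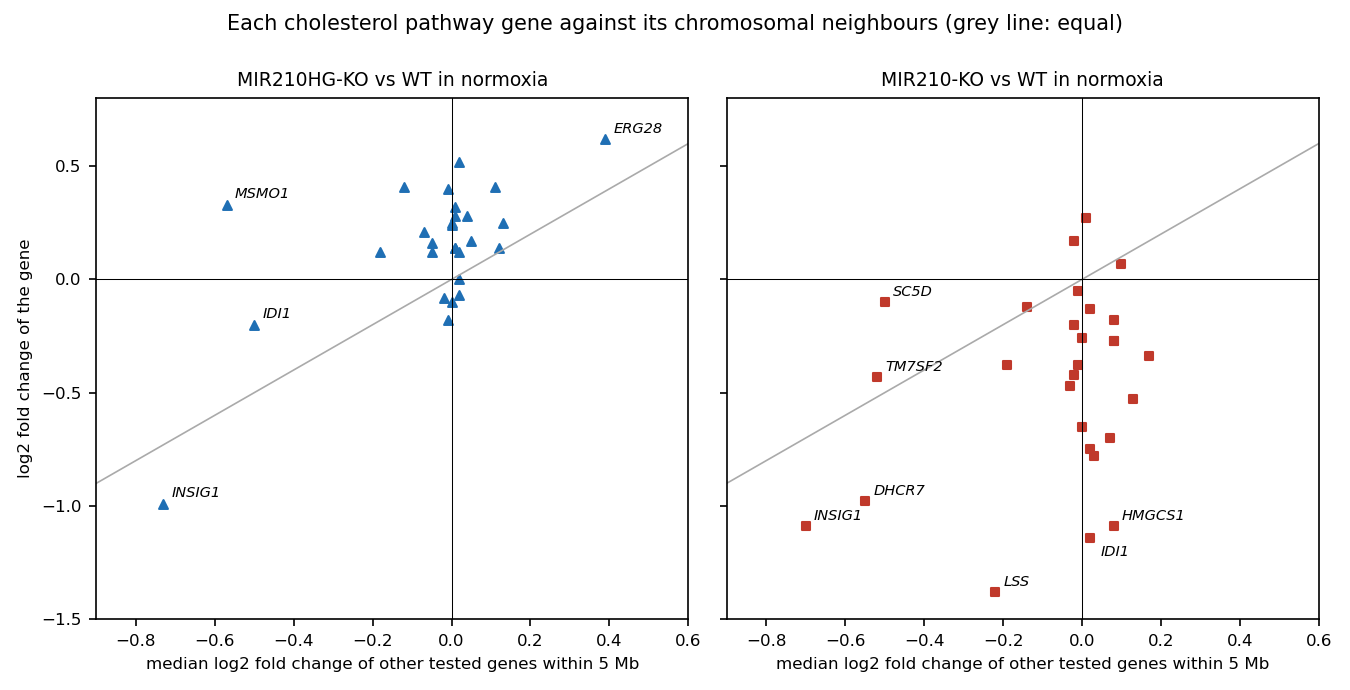
Log2 fold change of each member (vertical axis) against the median log2 fold change of the other tested genes within 5 Mb (horizontal axis) in normoxia, for MIR210HG-KO (left) and MIR210-KO (right) against WT cells; the grey line marks equal values. Most points sit near 0 on the horizontal axis, and INSIG1 sits at -0.73 and -0.70.

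Other genes of sterol and lipid metabolism, in lists chosen by function, did not move as one group. In MIR210-KO cells in normoxia, where 21.6% of all tested genes fell and 22.6% rose, 7 of 11 genes of fatty acid synthesis fell and 1 rose, with a median of -0.29, led by the desaturases FADS2 (-1.19) and FADS1 (-0.98) and by ACSS2 (-0.95), which makes acetyl-CoA from acetate. Of 11 genes that process SREBP or degrade sterol enzymes, 4 rose and 2 fell (median 0.08). Of 12 users of isoprenoids, 4 rose and 1 fell (median 0.09), of 12 genes of lysosomal and cytosolic sterol handling, 1 rose and 5 fell (median -0.08), with the oxysterol binding protein gene OSBP at -0.60, and of 7 LXR genes and targets, 1 rose and 4 fell (median -0.42), with NR1H3, the gene of LXR alpha, at -1.11. FADS1, FADS2, OSBP and NR1H3 lie on chromosome 11, whose tested genes had a median of -0.50 in this comparison. The part of that chromosome in their values was not tested.

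In MIR210HG-KO cells in normoxia, 8 of 11 fatty acid synthesis genes fell and 1, ACSS2 (0.29), rose, where 19.6% of all genes fell and 15.6% rose, with a median of -0.33 and ELOVL6, an elongase, at -0.53. In hypoxia 2 rose and 5 fell (median -0.05), where 24.4% of all genes rose and 30.2% fell. FASN, the fatty acid synthase, fell in hypoxia in every genotype, by 0.92 in MIR210HG-KO, 1.16 in MIR210-KO and 1.52 in WT cells. In hypoxic MIR210-KO cells, 6 of 11 fatty acid genes fell and 1 rose, where 27.7% of all genes fell and 28.2% rose, with FADS2 at -1.20 and ACSS2 at -1.07, as did 3 of 7 LXR genes and targets, with 1 higher and NR1H3 at -0.95. The part of chromosome 11 in the values of FADS2 and NR1H3 was not tested here either.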

How the data were processed

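Messenger RNA of 24 HEK293T libraries, 4 in each of 6 groups, was sequenced from TRIzol total RNA with NEBNext Ultra libraries, per the labels' protocols. The submitters' processing notes name STAR 2.6.1d, featureCounts 1.5.0-p3, DESeq2 1.20.0, edgeR 3.24.3 and GRCh38; the strand setting and annotation release are not given in the sources used here. The authors deposited raw counts per gene in 2 tables, 1 for each oxygen level, with 58735 genes each.

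The tables were joined by gene ID and fitted together in edgeR 4.0.16 (R 4.3.3, limma 3.58.1) with 6 group means, filterByExpr, TMM factors and the quasi-likelihood F test. P-values were adjusted by Benjamini-Hochberg over all 19952 genes tested, and an adjusted p under 0.05 is a call. CPM uses TMM-scaled library sizes, and TPM the deposited gene lengths. The fit was also run on simulated counts in which a small share of genes was changed in a single group. That run does not cover data in which as many genes differ as here. For each comparison, library values are printed for up to 3 called members with the largest change and no overlap. Members and lists were chosen with earlier results of these data known. Other settings tried were upper quartile or RLE factors, DESeq2 1.42.0, no filter or a stricter one, only the groups compared, a replicate block, no mitochondrial genes, a covariate for long (8000 bases or more) against short (1500 or fewer) genes, and leaving out libraries. No multi-mapping correction was possible from counts, and counts carry sampling error at 25556776 to 37858947 counts per library.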

Additional observations from a re-analysis of the deposited data

Results flagged for a closer look

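In the groups of 4 libraries, 11 of 168 combinations of member and group held a library far from the other 3, where chance flags about 1 group in 20. In hypoxia, ACAT2 was at 114 CPM in MIR210HG-KO library 3 (118 to 119 CPM in the other 3) and at 50 CPM in MIR210-KO library 1 (45.0 to 45.7 CPM). IDI1 was at 221 CPM (244 to 248 CPM), SREBF2 at 357 CPM (328 to 333 CPM) and SCAP at 158 CPM (138 to 140 CPM), all in MIR210HG-KO library 3. CYP51A1 was at 14.9 CPM in MIR210HG-KO library 1 (16.9 to 17.2 CPM) and SQLE at 245 CPM in WT library 4 (260 to 261 CPM). In normoxia, CYP51A1 was at 14.7 CPM in MIR210HG-KO library 3 (19.9 to 20.8 CPM), PMVK at 23.9 CPM in MIR210-KO library 1 (27.9 to 28.2 CPM), MVD at 71.1 CPM in WT library 1 (64.1 to 64.8 CPM) and ERG28 at 42.3 CPM in WT library 4 (44.6 to 45.0 CPM).

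The oxygen response of 13 of 28 members in MIR210HG-KO cells and of 5 in MIR210-KO cells differed from WT cells in the interaction test of edgeR. Of all tested genes, 22.5% passed this test for MIR210HG-KO cells and 26.5% for MIR210-KO cells. For MIR210HG-KO cells the log2 differences of the responses were LSS 0.62, MVK 0.49, SQLE 0.46, DHCR7 0.44, TM7SF2 0.42, ERG28 0.38, CYP51A1 0.38, ACAT2 0.37, NSDHL 0.35, INSIG1 0.26, HMGCS1 0.25, GGPS1 -0.38 and ABCG1 -0.82. For MIR210-KO cells they were LSS 0.44, SREBF2 0.33, SQLE 0.32, INSIG1 -0.36 and GGPS1 -0.41.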

How the results depend on the processing

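The number of members called stayed within 1.5 times the reported number in every alternative run except 1: without the 4 libraries that stood apart, 8 members (6 higher, 2 lower) were called for the interaction of MIR210-KO with oxygen, against 5. All-gene calls rose there as well, to 2893 higher and 3039 lower, against 2495 and 2792. Fits that left out 1 library each gave 20 to 23 members for MIR210-KO against WT cells in normoxia and 20 to 21 in hypoxia, 12 to 19 for MIR210HG-KO against WT cells in normoxia and 22 to 25 in hypoxia, and 20 to 22 and 22 to 24 between the knockouts. They gave 18 to 21, 20 to 23 and 21 to 23 for oxygen in MIR210HG-KO, MIR210-KO and WT cells, and 5 to 6 and 10 to 14 for the interactions of MIR210-KO and MIR210HG-KO. Over single members, 6980 of 7174 values kept their direction and their side of the threshold, 193 lost the call and 1 reversed: PMVK in MIR210-KO against WT cells in normoxia, at 0.01 with the covariate for long and short genes, against -0.26. The cause was not tested. No pairing by replicate number was seen: of 60 pairs of deviations with the same number, 2 correlated above 0.1. Whether libraries with the same number were handled together is not given in the sources used here. With the replicate number as a block, 21 members were called for MIR210-KO against WT cells in normoxia, as without it, and 12 for the interaction of MIR210HG-KO with oxygen, against 13. DESeq2 called 17 members higher and 1 lower for MIR210HG-KO against WT cells in normoxia, where it called 3699 of all genes higher and 3644 lower. Depth limits ABCA1 and ABCG1 most, which had the lowest levels.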
